A study of Ovis aries with 15 samples.

Results

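Aquaporins are membrane channels for water and, in some members, glycerol or urea. The array used here to profile the kidney cortex of fetal sheep named 7 aquaporin genes on 12 probes, out of 1029 gene names and 15008 probes. They were taken as every probe whose gene name on the array was AQP followed by a number: AQP1, AQP2, AQP3, AQP5 and AQP8 with 2 probes each, and AQP4 and AQP9 with 1 probe each. All 15 fetuses were chronically catheterised and were studied at about 125 d of gestation. Hypoxia or normoxia was imposed for 30 min through the mother's ventilation. The fetuses were given ketamine at 3 mg/kg, an anaesthetic that blocks NMDA receptors, or saline vehicle. Cortex was taken 24 h after onset, and 1 array was run per fetus: 3 for normoxia with vehicle, 4 for normoxia with ketamine, 4 for hypoxia with vehicle and 4 for hypoxia with ketamine.

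In the kidney, AQP1 is the constitutive water channel of the proximal tubule, the thin descending limb and the descending vasa recta, and it is also abundant in red cells. AQP2 is the vasopressin-regulated channel that moves to the apical membrane of collecting duct principal cells, and AQP3 and AQP4 carry the water out across the basolateral membrane of the same cells. AQP3 also passes glycerol and occurs in red cells. AQP5 is best known from lung, salivary and lacrimal gland epithelium, AQP8 from gut, liver and pancreas, and AQP9 is an aquaglyceroporin of liver and leukocytes. In the sheep RefSeq gene table (assembly ARS-UI_Ramb_v3.0), AQP5 lay between AQP6 and AQP2, and AQP3 lay beside AQP7. AQP6 and AQP7 were not among the named probes.

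The probe sequences are shown because agreement between near-identical probes set how far each gene could be read. The 2 probes of AQP1, of AQP2 and of AQP5 were the same 60-base target shifted by 1 base, so they shared 59 of 60 bases, which are given in capitals. The AQP3 pair shared 59 bases in the same way and is not printed. Probes of such a pair are repeat measurements of 1 target in 1 fetus and not independent support. The AQP8 probes started at bases 213 and 782 of the array's transcript and shared no stretch, so they and the single AQP4 probe are in lower case.
AQP1 A_70_P051356: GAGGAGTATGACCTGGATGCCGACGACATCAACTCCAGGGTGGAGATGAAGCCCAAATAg
AQP1 A_70_P051357: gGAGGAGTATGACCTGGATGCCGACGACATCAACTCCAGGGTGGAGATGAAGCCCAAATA
AQP2 A_70_P026246: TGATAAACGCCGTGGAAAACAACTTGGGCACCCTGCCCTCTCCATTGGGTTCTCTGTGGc
AQP2 A_70_P026247: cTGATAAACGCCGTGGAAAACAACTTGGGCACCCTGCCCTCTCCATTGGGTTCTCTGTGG
AQP5 A_70_P030151: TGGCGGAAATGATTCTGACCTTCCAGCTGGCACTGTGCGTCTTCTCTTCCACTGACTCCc
AQP5 A_70_P030152: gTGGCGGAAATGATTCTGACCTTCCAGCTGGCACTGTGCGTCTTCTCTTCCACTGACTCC
AQP4 A_70_P030236: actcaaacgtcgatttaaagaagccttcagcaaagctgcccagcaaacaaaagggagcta
AQP8 A_70_P026741: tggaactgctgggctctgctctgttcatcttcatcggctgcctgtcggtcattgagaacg
AQP8 A_70_P026742: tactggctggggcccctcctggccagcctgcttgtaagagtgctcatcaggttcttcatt

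Levels are given as the log2 of the scanner signal relative to the 75th percentile of the same array, so 0 is the 75th percentile. That percentile was a signal of 1064 to 1425, and 75.6% to 85.2% of the probes on an array were well above background. A level of 1 probe cannot be set against that of another, since probes differ in brightness, so levels are compared between groups within a probe. Nephron markers were read as well: SLC34A1 of the proximal tubule, HSD11B2 and GATA3 of the collecting duct and WT1 of the podocyte were well above background on all 15 arrays. None of the 6 markers of the thick ascending limb and distal tubule was on the array. Since most probes were well above background, these readings cannot identify the tissue, which is taken from its label. A probe is said to have risen or fallen, or to be past the threshold, where limma gave an unadjusted p no higher than 0.05, as the study itself used. Adjusted p-values are Benjamini-Hochberg values over the 12927 probes tested. Hypoxia vehicle replicate 4 and hypoxia ketamine replicate 2 stood apart from the rest (median correlation with the other arrays 0.965 and 0.974, against up to 0.987). The median probe SD of the hypoxic groups was 1.39 times that of the normoxic groups, while each SE uses 1 variance for all 4. The number of arrays limits the precision, and in whole cortex more cells of a type and more RNA per cell cannot be told apart.

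Of the 12 aquaporin probes, 9 were well above background on all 15 arrays. Both AQP5 probes were well above background on 14 arrays, and the AQP9 probe on 0. The AQP5 signal was low, from 9.59 to 43.7 over the arrays and both probes. AQP2 and AQP8 varied least between fetuses: the highest signal over the lowest was 1.67 and 1.68 for the AQP2 probes and 1.57 and 1.31 for the AQP8 probes. For AQP1 this ratio was 2.17 and 2.01, for AQP3 2.66 and 2.50, and for AQP4 3.65. No aquaporin spot was saturated or marked as an outlier by the scanner software.

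**Figure D1:**
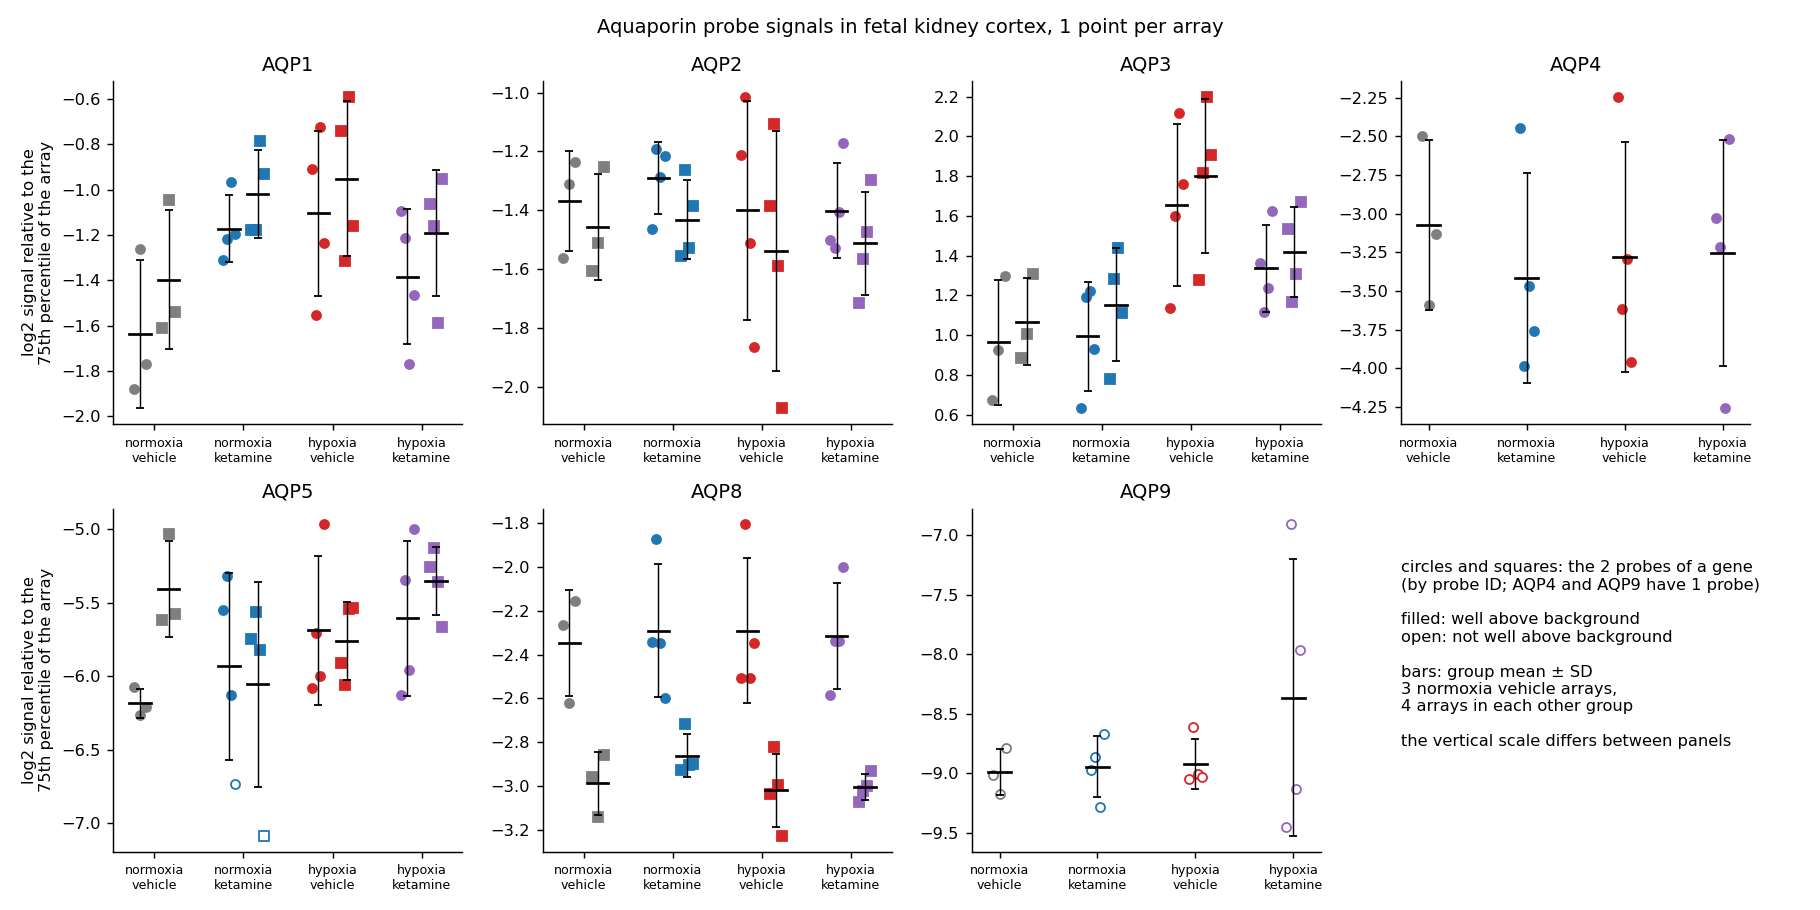
Log2 signal of each aquaporin probe relative to the 75th percentile of its array (vertical axis) by group, 1 point per array, with the group mean and SD (n = 3 for normoxia vehicle, 4 for the others). The AQP3 points of hypoxic vehicle fetuses reach 2.20, those of normoxic vehicle fetuses stop at 1.31, and all AQP9 points are open because none was well above background.

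Hypoxia in vehicle fetuses is the first comparison, and AQP3, the basolateral water and glycerol channel of the collecting duct, stood highest after it. The level of AQP3 probe A_70_P026067 was 0.886, 1.005 and 1.31 in the 3 normoxic vehicle fetuses. It was 1.28, 1.82, 2.20 and 1.91 in hypoxic vehicle replicates 1 to 4. Of these, 3 lay above every normoxic vehicle fetus, while replicate 1 lay within the normoxic range, so the groups overlapped. The difference was 0.73 ± 0.22 on the log2 scale (SE, 3 against 4 fetuses), or 1.66-fold, with a 95% interval of 0.27 to 1.20 (adjusted p = 0.173, limma). The other AQP3 probe differed by 0.69 ± 0.23, or 1.61-fold (adjusted p = 0.196, limma).

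In ketamine fetuses the same AQP3 probe read 0.78, 1.28, 1.44 and 1.11 after normoxia and 1.53, 1.16, 1.31 and 1.67 after hypoxia. Only 2 of the 4 hypoxic ketamine fetuses were above the highest normoxic one. The difference was 0.27 ± 0.20 for this probe and 0.34 ± 0.21 for the other, both short of the threshold, with intervals from -0.17 to 0.70 and from -0.11 to 0.80. Averaged over vehicle and ketamine, AQP3 rose with hypoxia by 0.50 ± 0.15 and 0.52 ± 0.16 for its 2 probes (adjusted p = 0.0891 and 0.0948, limma). The order of the group means was hypoxia vehicle (1.80 ± 0.39, SD), hypoxia ketamine (1.42 ± 0.23), normoxia ketamine (1.15 ± 0.28) and normoxia vehicle (1.07 ± 0.22), and no neighbours in this order differed past the threshold. The hypoxia effects with ketamine and with vehicle differed by -0.47 ± 0.29 for this probe and by -0.35 ± 0.31 for the other, neither past the threshold (adjusted p = 0.989 for both, limma).

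The arrays lay on 2 slides, both with arrays of every group. Without the 2 arrays that stood apart, the AQP3 changes in vehicle fetuses were 0.70 and 0.65. With slide as a block the AQP3 changes in vehicle fetuses were 0.72 and 0.67. Within slide 1 they were 0.92 and 0.88, and within slide 2, where 1 normoxic vehicle array was present, they were 0.43 and 0.33, short of the threshold. Averaged over both drug arms, the changes within slide 2 were 0.29 and 0.28, short of the threshold, against 0.65 and 0.67 within slide 1, past it. Without normoxia vehicle replicate 1, the vehicle change of probe A_70_P026066 was 0.54, just short of the threshold, and that of A_70_P026067 stayed past the threshold whichever array was left out.

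Markers of other cells moved in the same comparison. Of 10 monocyte and macrophage markers, 6 were on the array, and 5 of these 6 rose after hypoxia with vehicle and 4 with ketamine, against 5.77% and 3.71% of all probes. Their summed signal was 87.3% to 94.5% of the array's 75th percentile in normoxic vehicle fetuses and 133% to 393% in hypoxic vehicle fetuses. After normoxia with ketamine the sum was 84.5% to 101%, and after hypoxia with ketamine 119% to 374%. Of 9 erythroid markers, only HBB was on the array, at 1159% to 2869% in normoxic and 1349% to 4762% in hypoxic vehicle fetuses, and it did not pass the threshold. Of 8 neutrophil markers, only CATHL3 was on the array, at 51.4% to 209% in normoxic and 48.4% to 2900% in hypoxic vehicle fetuses. In ketamine fetuses it was at 17.4% to 66.3% after normoxia and 91.2% to 2138% after hypoxia. It rose after hypoxia with ketamine (3.17 ± 1.25, adjusted p = 0.515, limma) and in the average of both arms (2.37 ± 0.92, adjusted p = 0.177, limma), and with vehicle its difference of 1.57 ± 1.35 was short of the threshold. The 4 collecting duct markers on the array (of 10) summed to 5200% to 6279% in normoxic and 3543% to 5688% in hypoxic vehicle fetuses, and none of them passed the threshold. HSD11B2 made up most of that sum, with group means of 5162% and 4343%. GATA3 was also lower after hypoxia (529% and 449%), while SCNN1B (14.5% and 14.8%) and SCNN1G (7.67% and 11.9%) were higher. The part of other cells in the AQP3 difference was not tested.

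AQP2, the regulated apical channel of the same principal cells, was set against AQP3 within each array, because the array's scaling cancels in that ratio. The log2 signal of AQP3 minus that of AQP2, each the mean of its 2 probes, was 2.43 ± 0.10 after normoxia with vehicle and 3.20 ± 0.66 after hypoxia with vehicle (SD, n = 3 and 4). It was 2.43 ± 0.23 after normoxia with ketamine and 2.83 ± 0.17 after hypoxia with ketamine (SD, n = 4 each). The value itself has no meaning across probes, but a constant difference in brightness cancels in its change. It was 0.77 higher after hypoxia in vehicle fetuses and 0.40 higher in ketamine fetuses. The mean of the 2 changes was 0.58, with p = 0.0114 in a two-sided exact permutation test of the hypoxia label within drug arms (2450 arrangements, smallest possible p = 0.000816). This ratio was chosen after the AQP3 and AQP2 values had been seen, so its p-value is not independent support for the AQP3 difference. The vehicle groups differed in SD, and the permutation test does not separate a shift from a difference in spread. Hypoxia vehicle replicate 1 (2.50) lay within the normoxic vehicle range. The highest value, 3.80, was that of hypoxia vehicle replicate 4, which stood apart and had the lowest AQP2 mean of all arrays (-1.97). The ratio was not tested without that array or within slides.

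**Figure D2:**
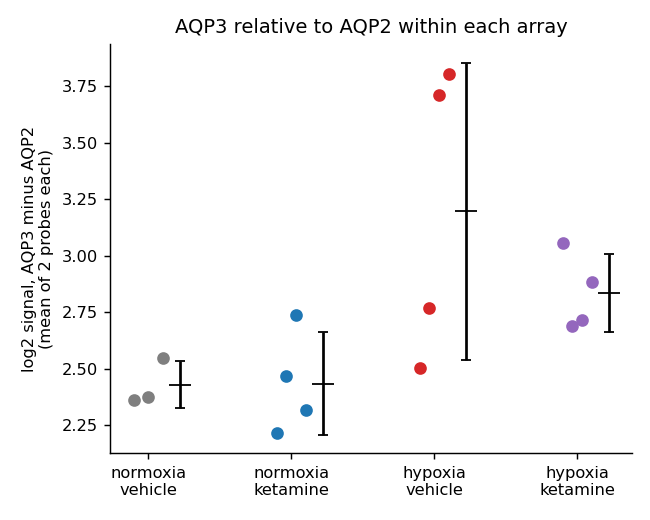
Log2 signal of AQP3 minus that of AQP2 within each array (vertical axis, mean of 2 probes per gene) by group, 1 point per array, with group mean and SD to the right of the points. The hypoxic vehicle arrays run from 2.50 to 3.80, and the normoxic vehicle arrays from 2.36 to 2.55.

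AQP1, the proximal tubule channel, was lowest in normoxic vehicle fetuses. Its probe A_70_P051356 read -1.88, -1.26 and -1.77 there, with replicate 2 above the others. It read -0.91, -1.55, -0.73 and -1.23 after hypoxia with vehicle, so the groups overlapped. The difference was 0.53 ± 0.22, or 1.45-fold (adjusted p = 0.262, limma). The probe shifted by 1 base, A_70_P051357, differed by 0.45 ± 0.21 and just missed the threshold (adjusted p = 0.317, limma). The mean of both probes, a choice made after the data were seen, rose by 0.49 ± 0.21 (adjusted p = 0.277, limma).

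The AQP1 order of group means was hypoxia vehicle (-1.10 ± 0.36, SD, probe A_70_P051356), normoxia ketamine (-1.17 ± 0.15), hypoxia ketamine (-1.39 ± 0.30) and normoxia vehicle (-1.64 ± 0.33), with neighbouring groups overlapping. In ketamine fetuses this probe read -1.31, -1.22, -0.97 and -1.20 after normoxia and -1.09, -1.22, -1.77 and -1.46 after hypoxia, a difference of -0.21 ± 0.20, short of the threshold (-0.17 ± 0.20 for the other probe). The hypoxia effect with ketamine was thus 0.74 ± 0.30 lower on the log2 scale than with vehicle (interaction -0.74, adjusted p = 0.989, limma), and for the other probe the interaction was -0.62 ± 0.29, just short of the threshold. Ketamine without hypoxia came with a difference of 0.46 ± 0.22 and 0.38 ± 0.21 for the 2 probes, both short of the threshold. In hypoxic fetuses ketamine came with -0.28 ± 0.20 and -0.24 ± 0.20, and the average hypoxia change was 0.16 ± 0.15 and 0.14 ± 0.14, all short of it. The hypoxia effect with vehicle, the interaction and the ketamine effect in normoxia share the 3 normoxic vehicle fetuses.

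The AQP1 call in vehicle fetuses was lost without normoxia vehicle replicate 1 (0.41) or replicate 3 (0.47) and without hypoxia vehicle replicate 1 (0.47) or replicate 3 (0.41), and also with only the vehicle groups in the fit. It was 0.18 within slide 1, short of the threshold, 0.95 within slide 2 and 0.51 with slide as a block. The AQP1 interaction was -0.25 within slide 1, short of the threshold, -1.30 within slide 2 and -0.72 with slide as a block. That of the other probe, A_70_P051357, turned to 0.033 within slide 1 and was -1.34 within slide 2, where it was past the threshold. The interaction of A_70_P051356 was short of the threshold without normoxia vehicle replicate 1 (-0.62) or 3 (-0.68), normoxia ketamine replicate 3 (-0.68), hypoxia vehicle replicate 3 (-0.62) or hypoxia ketamine replicate 3 (-0.62). AQP1 is also a channel of endothelium, whose 6 markers on the array (of 10) summed to 532% to 590% of the 75th percentile in normoxic and 519% to 677% in hypoxic vehicle fetuses. PECAM1 made up most of that sum, with group means of 541% and 472%. Of the 5 endothelial markers tested in this comparison, 1 rose and 1 fell, against 5.77% and 10.4% of all probes, with a median change of -0.29. SELP, the adhesion molecule P-selectin, rose (4.85 ± 1.15, adjusted p = 0.131, limma), with group means of 2.31% and 130%, and KDR, a VEGF receptor, fell (-0.46 ± 0.17, adjusted p = 0.222, limma). The part of red cells, endothelium and the monocyte and neutrophil markers given above in the AQP1 difference was not tested.

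AQP2 did not pass the threshold in any comparison. Its probe A_70_P026246 read -1.37 ± 0.17 after normoxia with vehicle, -1.29 ± 0.12 after normoxia with ketamine, -1.40 ± 0.37 after hypoxia with vehicle and -1.40 ± 0.16 after hypoxia with ketamine (SD, n = 3, 4, 4 and 4). The widest spread was that of hypoxic vehicle fetuses, from -1.87 in replicate 4 to -1.01 in replicate 2. The 95% intervals of its 2 probes in the 4 group comparisons ran from -0.50 to 0.46 in all, which leaves room for changes of up to that size either way. Hypoxia came with -0.032 ± 0.18 and -0.082 ± 0.19 in vehicle fetuses and with -0.11 ± 0.17 and -0.080 ± 0.18 in ketamine fetuses, for A_70_P026246 and A_70_P026247. Ketamine came with -0.0015 ± 0.17 and 0.027 ± 0.18 in hypoxic and with 0.079 ± 0.18 and 0.025 ± 0.19 in normoxic fetuses. The interactions were -0.081 ± 0.24 and 0.0022 ± 0.26, and the average hypoxia changes -0.072 ± 0.12 and -0.081 ± 0.13. AQP4, the other basolateral channel of principal cells, had the widest intervals among the probes well above background on all arrays. They ran from -1.38 to 1.13 in the 4 group comparisons and from -1.05 to 1.79 in the interaction. AQP4 read -2.50 to -3.59 after normoxia with vehicle, -2.45 to -3.99 after normoxia with ketamine, -2.24 to -3.96 after hypoxia with vehicle and -2.52 to -4.26 after hypoxia with ketamine. The ranges of all 4 groups overlapped. AQP4 differed by -0.21 ± 0.48 after hypoxia with vehicle and by 0.16 ± 0.45 with ketamine, and ketamine came with 0.023 ± 0.45 in hypoxic and -0.34 ± 0.48 in normoxic fetuses. Its interaction was 0.37 ± 0.66 and its average hypoxia change -0.022 ± 0.33, and none of these passed the threshold.

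AQP8 was read at 2 separate places of its transcript. Probe A_70_P026741 had group means of -2.35, -2.29, -2.29 and -2.31 for normoxia vehicle, normoxia ketamine, hypoxia vehicle and hypoxia ketamine, and probe A_70_P026742 had -2.99, -2.86, -3.02 and -3.005. Hypoxia came with 0.058 ± 0.21 and -0.033 ± 0.11 in vehicle fetuses, and the first probe differed by -0.024 ± 0.20 in ketamine fetuses. Ketamine came with -0.024 ± 0.20 and 0.015 ± 0.11 in hypoxic and with 0.058 ± 0.21 and 0.13 ± 0.11 in normoxic fetuses. The interactions were -0.082 ± 0.29 and -0.11 ± 0.16, and the average hypoxia changes 0.017 ± 0.14 and -0.089 ± 0.078. None of the differences passed the threshold, and the intervals of the 4 group comparisons ran from -0.45 to 0.51 for the first and from -0.37 to 0.37 for the second. For the second probe, the hypoxic ketamine fetuses read -3.07 to -2.93 and the normoxic ketamine fetuses -2.93 to -2.72, ranges that meet at this rounding. The difference of -0.14 ± 0.11 was short of the threshold, which 4.97% of all probes passed downwards in this comparison. The probes correlated at r = 0.67 over the 15 arrays.

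**Figure D3:**
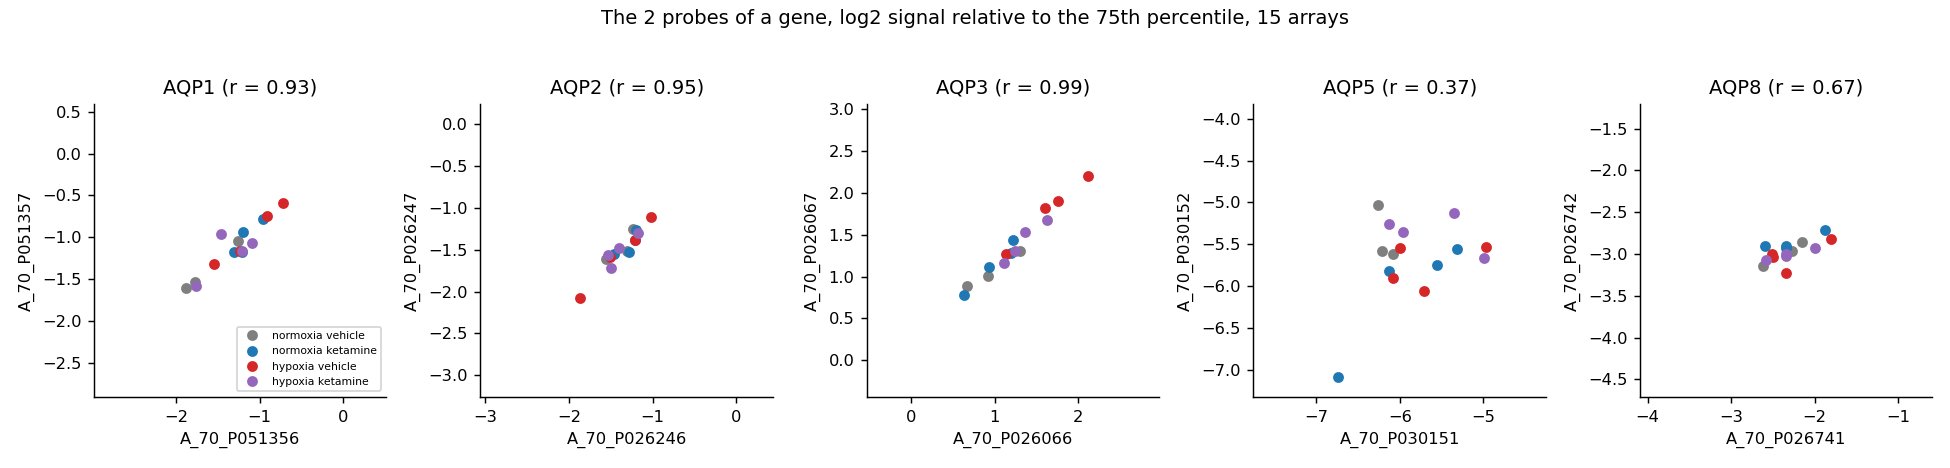
Log2 signal of the 2 probes of a gene against each other, 1 point per array coloured by group, on axes of equal length. The AQP3 points lie along a line (r = 0.99), while those of AQP5, a pair sharing 59 of 60 bases, scatter (r = 0.37).

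AQP5 gave 2 different answers from near-identical probes. Probe A_70_P030152 read -5.75, -5.56, -5.82 and -7.09 after normoxia with ketamine, where replicate 4 was far below the others and not well above background. After hypoxia with ketamine it read -5.26, -5.13, -5.36 and -5.67, and the groups overlapped. The difference was 0.70 ± 0.29, or 1.63-fold (adjusted p = 0.52, limma). Without normoxia ketamine replicate 4 it was 0.36 and short of the threshold, and within slide 1 it was 0.26 and short of it. Within slide 2, which holds that array, it was 1.15. It was also short of the threshold without hypoxia ketamine replicate 1 (0.67) or replicate 2 (0.63), without the 2 arrays that stood apart (0.63), with only the ketamine groups in the fit, with normexp background correction (0.45) and in the deposited values (0.19).

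The AQP5 probe shifted by 1 base, A_70_P030151, read -5.55, -5.32, -6.13 and -6.74 and then -6.13, -5.35, -5.96 and -5.00 in the same fetuses, a difference of 0.33 ± 0.33. In vehicle fetuses the probes went opposite ways. A_70_P030151 read -6.08, -6.27 and -6.21 after normoxia and -6.08, -5.71, -6.00 and -4.97 after hypoxia, a difference of 0.50 ± 0.36. A_70_P030152 read -5.62, -5.03 and -5.58 and then -5.91, -6.06, -5.55 and -5.53, a difference of -0.35 ± 0.31. Neither passed the threshold. With slide as a block, the change of A_70_P030151 was 0.61 and past the threshold, while within slides 1 and 2 it was 0.84 and 0.17.

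The AQP5 interaction likewise differed between the probes. It was 1.06 ± 0.42 for A_70_P030152 (adjusted p = 0.989, limma) and -0.17 ± 0.49 for A_70_P030151. The average hypoxia changes of these probes were 0.17 ± 0.21 and 0.41 ± 0.24, both short of the threshold. The interaction of A_70_P030152 was short of the threshold without normoxia vehicle replicate 2 (0.87), and with normexp (0.66) or in the deposited values (0.33), and within slides 1 and 2 it was 0.73 and 1.30, both short of the threshold. For the mean of both probes, the change after hypoxia was 0.071 ± 0.29 with vehicle and 0.51 ± 0.27 with ketamine, and the interaction was 0.44 ± 0.39, none past the threshold (lowest adjusted p = 0.643, limma).

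The AQP5 pair stood out by its disagreement. Over the 15 arrays its probes correlated at r = 0.37, and their difference had an SD of 0.56. For AQP1, AQP2 and AQP3, pairs built in the same way, r was 0.93, 0.95 and 0.99 and the SD 0.12, 0.073 and 0.067. Over all 241 pairs of probes on the array shifted by 1 base, the median r was 0.89 and the median SD 0.15. Over the 23 pairs with a mean level within 0.5 of that of AQP5, the medians were 0.63 and 0.36. They were 0.98 and 0.074 over the 19 pairs as near to AQP1, so the AQP1 pair also agreed less closely than its median. For AQP2 they were 0.98 and 0.074 (20 pairs), and for AQP3 0.99 and 0.067 (11 pairs). These are descriptions over arrays of 4 groups, and the points share each array's hybridisation. Surfactant genes, markers of the lung epithelium in which AQP5 is abundant, were read as well. The 4 on the array (of 6 lung and gland markers) summed to 5.14% to 8.98% of the 75th percentile over all arrays. SFTPA1, SFTPB and SFTPD were well above background on 14 arrays each and SFTPC on 11, and none of them passed the threshold in any comparison. The part of such cells in the AQP5 values was not tested.

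AQP9, the leukocyte and liver aquaglyceroporin, was not well above background on any array and was not tested. On 13 arrays its signal was a surrogate value set by the scanner software, and on 2, normoxia ketamine replicate 4 (3.20) and hypoxia ketamine replicate 2 (11.6), it was not. The value of hypoxia ketamine replicate 2 lay above the lowest signal that was well above background on that array, 5.42, but the probe itself was not marked so. No fold change is given, since no array of any group had the probe well above background.

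**Figure D4:**
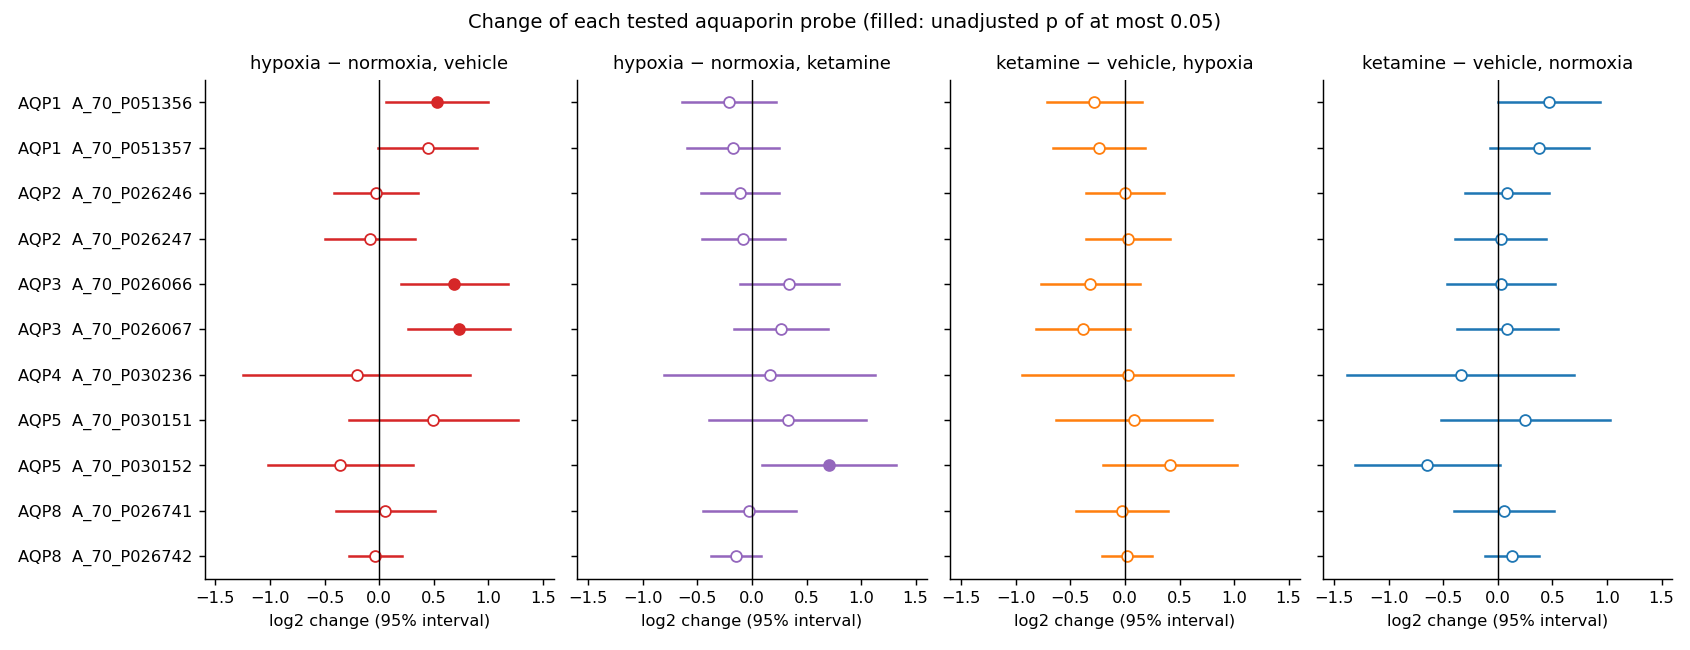
Log2 change of the 11 tested aquaporin probes (horizontal axis) with 95% intervals from limma in the 4 group comparisons, filled where the unadjusted p was at most 0.05. In vehicle fetuses hypoxia has 3 filled points, both AQP3 probes and 1 of AQP1, and the comparison in ketamine fetuses has 1, of AQP5.

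Over the 11 aquaporin probes tested, of 6 genes, 3 probes of 2 genes rose after hypoxia with vehicle and 0 fell. The 3 probes read only 2 targets. Of all probes tested, 5.77% rose and 10.4% fell in that comparison. The median change was 0.058 for the aquaporins and -0.053 for all probes. After hypoxia with ketamine, 1 aquaporin probe rose and 0 fell, against 3.71% and 4.97% of all probes. In the average of both, the 2 AQP3 probes rose and 0 fell, against 7.81% and 12.5%. In the interaction, 1 probe was higher (AQP5) and 1 lower (AQP1), against 2.05% and 1.1%. No aquaporin probe passed the adjusted threshold of 0.05 in the main limma fit. Of all probes, 0.0155% passed it for hypoxia with vehicle, 1.6% in the average of both arms and 0% in the other 4 comparisons. Over 27 other settings, the adjusted p of the average AQP3 change in limma depended on the setting. It ran from 0.0361 to 0.789 for A_70_P026067 and from 0.0447 to 0.801 for A_70_P026066.

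Ketamine against vehicle is the remaining comparison, and in limma 0 aquaporin probes passed the unadjusted threshold in either state, nor after adjustment. In hypoxic fetuses 2.58% of all probes rose and 3.49% fell, and in normoxic fetuses 0.951% rose and 1.76% fell. The AQP3 probes were lower with ketamine in hypoxic fetuses by values short of the threshold, -0.38 ± 0.20 and -0.32 ± 0.21, and in normoxic fetuses they differed by 0.087 ± 0.22 and 0.029 ± 0.23. Without hypoxia vehicle replicate 1, the hypoxic vehicle fetus with the lowest AQP3, these were -0.56 and -0.49 and past the threshold. AQP5 probe A_70_P030152 differed by 0.41 ± 0.29 in hypoxic fetuses and by -0.65 ± 0.31 in normoxic fetuses, both short of the threshold, and A_70_P030151 by 0.081 ± 0.33 and 0.25 ± 0.36. Without normoxia ketamine replicate 4, whose spot was not well above background, the normoxic difference of A_70_P030152 was -0.30. Without normoxia ketamine replicate 1 (-0.75) or replicate 2 (-0.81) it was past the threshold. Placental markers moved with ketamine in normoxic fetuses: the 7 on the array (of 9) summed to 5.55% to 5.98% of the 75th percentile with vehicle and to between 5.30% and 115% with ketamine. Without the 3 arrays on which placental lactogen was well above background, the normoxic ketamine group was left with replicates 3 (-5.82) and 4 (-7.09), and the difference of A_70_P030152 was -1.05. The part of placental RNA in the ketamine differences was not tested.

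Genes around the aquaporins were read from lists of the vasopressin response, of renal ion and urea transport, of osmotic regulation and of corticosteroid and collecting duct regulators. Of 34 genes of the vasopressin water pathway, 7 were measured: OXTR, PRKACA, PRKAR1A, CREB1, PTGER3, PTGER4 and EDNRB. After hypoxia with vehicle 0 of the 7 rose and 0 fell in limma, against 5.77% and 10.4% of all probes, so 0 of 7 is near the background. Their median change was 0.047 against -0.053 for all probes. CREB1, the transcription factor activated by protein kinase A, fell after hypoxia with ketamine (-0.38 ± 0.13, adjusted p = 0.423, limma) and with ketamine after hypoxia (-0.42 ± 0.13, adjusted p = 0.80, limma). These 2 comparisons share the hypoxic ketamine fetuses. CREB1 was 1 of 7 genes in each, while 4.97% and 3.49% of all probes fell. PRKAR1A, a regulatory subunit of that kinase, rose with ketamine in normoxic fetuses (0.28 ± 0.12), where 0.951% of all probes rose. No other gene of the list passed the threshold there. In the average of both arms 0 of the 7 rose and 1 fell, against 7.81% and 12.5% of all probes.

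Of 27 ion and urea transport genes, 12 were on the array and 11 were tested. After hypoxia with vehicle 1 rose and 1 fell, against 5.77% and 10.4% of all probes, with a median of 0.21 against -0.053 for all probes. Of 11, 1 each way is near that background. The one that rose was SLC9A3, the apical sodium-proton exchanger of the proximal tubule, which shares that cell with AQP1. It differed by 0.78 ± 0.24 (adjusted p = 0.173, limma). With ketamine after hypoxia it fell (-0.70 ± 0.22), and its interaction was -0.997 ± 0.32 (adjusted p = 0.989, limma). The AQP1 interaction given above was -0.74, in the same fetuses. SLC4A4, the basolateral sodium bicarbonate cotransporter of the proximal tubule, fell after hypoxia with vehicle (-0.54 ± 0.17) and with ketamine (-0.61 ± 0.16). Its average change of -0.58 ± 0.12 passed adjustment (adjusted p = 0.0366, limma). Of the 11 genes, 1 fell after hypoxia with ketamine and 1 in the average, against 4.97% and 12.5% of all probes. With ketamine in hypoxia 1 of the 11 fell, and in the interaction 1 was lower, against 3.49% and 1.1%. The epithelial sodium channel subunits SCNN1A, SCNN1B and SCNN1G, sodium pump subunit ATP1B1, SLC5A1 and SLC34A1 did not pass the threshold in any comparison. CFTR was well above background on 3 of the 15 arrays, so no size of change is given for it.

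Of 11 osmotic response genes, 2 were measured. NFAT5, the tonicity-responsive transcription factor, fell in the average of both arms (-0.30 ± 0.13), and HSPA1A, a heat shock protein, fell with ketamine after hypoxia (-0.68 ± 0.22). Each was 1 of 2 genes, while 12.5% and 3.49% of all probes fell in these comparisons. Of 16 corticosteroid and collecting duct regulators, 5 were measured. NR3C1, the glucocorticoid receptor, fell after hypoxia with vehicle (-0.42 ± 0.18) and with ketamine (-0.38 ± 0.17). HSD11B1, which regenerates active glucocorticoid, fell after hypoxia with ketamine (-0.79 ± 0.34). Of the 5 regulators, 1 fell with vehicle and 2 with ketamine, against 10.4% and 4.97% of all probes. In the average of both arms 0 rose and 2 fell, against 7.81% and 12.5%. These calls are unadjusted, and no probe of the array passed adjustment for hypoxia with ketamine or for ketamine in hypoxia. HSD11B2 and GATA3 did not pass the threshold in any comparison.

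The named genes whose levels followed each aquaporin most closely over the 15 arrays were ranked by Pearson's r among 769 gene names, as a description. The arrays share batches and group differences. For both AQP3 probes PGFS, named for prostaglandin F synthase, was the closest (r = 0.76 and 0.74), followed for A_70_P026066 by OXTR, the oxytocin receptor (0.74), and for A_70_P026067 by CCND3, a D-type cyclin (0.73). RABGGTB was the third for both (0.73 and 0.72). For both AQP1 probes ITGAV, the integrin alpha V subunit, was the closest (0.78 and 0.76) and TUBA4A, an alpha tubulin, the second (0.76 and 0.67). The third was SLC9A3 (0.69) for A_70_P051356 and ODC1 (0.64) for A_70_P051357. For AQP2 the same 3 names led for both probes: PECAM1 of endothelium (0.86 and 0.84), SMCT1 (0.83 and 0.86) and LHB (0.77 and 0.81). For AQP5 the lists of the 2 probes shared no name: PTAFR (0.89), CRHR1 (0.88) and CCL25 (0.83) led for A_70_P030151, and PAX4 (0.73), CHRD (0.73) and CAUXIN (0.73) for A_70_P030152. The AQP8 probes shared none either, with PRLH (0.86), CXCL1 (0.85) and INSL3 (0.82) for A_70_P026741 and CD247 (0.80), ATP5MC2 (0.79) and POLR2G (0.79) for A_70_P026742. For AQP4 the closest were COL2A1 (0.70), HPCAL1 (0.63) and BRS3 (0.60).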

How the data were processed

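Kidney cortex RNA of 15 fetal sheep was labelled with Cy3 and hybridised to 1-colour Agilent arrays, 1 array per fetus. Per the file headers, the deposited scanner intensity was background subtracted and detrended by Agilent Feature Extraction 10.1.1.1 without scaling between arrays. The authors' deposited value table holds log2 values, which served as an alternative. 12 of its 15 columns tracked another array of their own group most closely. The filter behind it is not given in the sources used here.

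Signals were log2 transformed and expressed relative to the 75th percentile of the array. Probes well above background on at least 3 arrays (12927 of 15008) were fitted in limma 3.58.1 (R 4.3.3) with 4 group means and 1 pooled variance per probe, on 11 residual degrees of freedom (prior 2.40). Tests were two-sided. The script was tested on simulated data. Only 11.0% of probes carried a gene name.

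The aquaporins and the gene lists were chosen with earlier results of these data known. Every aquaporin probe that was tested is given in every comparison, and for the other lists at most the 4 largest changes past the threshold, 1 probe per gene. For each tested aquaporin probe the 3 named genes with the highest r are given. Some genes of these lists are not reported here. Older names on the array were matched by a table written after they were seen. Alternatives were normexp with an offset of 50, quantile scaling, the deposited values, other filters, slide, replicate block, only the groups compared, and leaving arrays out. The mean of overlapping probes and the ratio of AQP3 to AQP2 were added after the data were seen.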

Additional observations from a re-analysis of the deposited data

Results flagged for a closer look

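AQP1 probe A_70_P051356 had a hypoxia effect that differed between ketamine and vehicle fetuses at the unadjusted threshold only (interaction -0.74, adjusted p = 0.989 in limma). Hypoxia came with 0.53 in vehicle and -0.21 in ketamine fetuses. The interaction of A_70_P051357, shifted by 1 base, was -0.62, just short of the threshold, and turned to 0.033 within slide 1. AQP5 probe A_70_P030152 differed the other way (interaction 1.06, adjusted p = 0.989 in limma), while the probe shifted by 1 base gave -0.17.

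In normoxia ketamine replicate 4, AQP5 probe A_70_P030152 read -7.09 against -5.82 to -5.56 in the other 3 fetuses of its group, a gap of 0.83 of the group's range. In normoxia ketamine replicate 2, AQP8 probe A_70_P026742 read -2.72 against -2.93 to -2.90, a gap of 0.87 of the range. These were 2 of 33 groups of 4 fetuses checked, and chance gives such a gap in about 1 in 20 groups.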

How the results depend on the processing

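Of 66 changes (11 probes in 6 comparisons), the 8 past the threshold kept their direction under every setting, and 39 others changed sign under at least 1 setting, none with p below 0.157 then. The causes were not tested. The normexp correction moved the median change of all probes to -0.11 for hypoxia with vehicle, 0.12 for ketamine in hypoxia and 0.18 in the interaction. The number of arrays limits the precision, and both AQP5 probes were well above background on 14 of 15 arrays. Whether replicate numbers pair the fetuses could not be settled. After removal of the group means, same-numbered arrays of different groups correlated at a median of 0.038 (21 pairs, -0.29 to 0.37). Arrays with different numbers correlated at a median of -0.0028 (63 pairs, -0.28 to 0.29). With a replicate block the AQP3 changes in vehicle fetuses were 0.70 and 0.65, and no call was lost.

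The count of aquaporin probes past the threshold was 3 for hypoxia with vehicle (1 to 4 when each array was left out in turn). For hypoxia with ketamine it was 1 (0 to 1 on leaving out arrays), and 0 with normexp, in the deposited values, with probes well above background on all arrays, within slide 1, with only the groups compared, and without the 2 arrays that stood apart. For ketamine in hypoxia it was 0 (0 to 2), and 1 within slide 2 and with only the groups compared. For ketamine in normoxia it was 0 (0 to 2), and 1 with quantile scaling, probes above background on all arrays, within slide 1, with only the groups compared, and without the arrays with placental lactogen. For the interaction it was 2 (1 to 3), 1 with normexp and 0 within slide 1. For the average it was 2, and 0 within slide 2.

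Changes short of the threshold turned sign as follows. With normexp, AQP2 A_70_P026246 gave 0.054 (ketamine in hypoxia) and 0.021 (the interaction), AQP2 A_70_P026247 gave 0.0024 (hypoxia with ketamine) and -0.0060 (ketamine in normoxia), AQP4 A_70_P030236 gave 0.057 (the average), AQP5 A_70_P030151 gave -0.074 (hypoxia with vehicle), -0.13 (ketamine in normoxia) and 0.46 (the interaction), AQP8 A_70_P026741 gave -0.022 (hypoxia with vehicle), 0.083 (hypoxia with ketamine), 0.086 (ketamine in hypoxia), -0.018 (ketamine in normoxia) and 0.10 (the interaction), AQP8 A_70_P026742 gave 0.040 (hypoxia with ketamine) and 0.11 (the interaction). Within slide 1, AQP1 A_70_P051356 gave 0.053 (ketamine in hypoxia), AQP1 A_70_P051357 gave 0.12 (hypoxia with ketamine), 0.18 (ketamine in hypoxia) and 0.033 (the interaction), AQP2 A_70_P026246 gave 0.089 (ketamine in hypoxia), AQP5 A_70_P030152 gave -0.11 (the average), AQP8 A_70_P026742 gave 0.026 (hypoxia with vehicle). Within slide 2, AQP2 A_70_P026246 gave -0.016 (ketamine in normoxia), AQP2 A_70_P026247 gave -0.11 (ketamine in hypoxia) and -0.20 (ketamine in normoxia), AQP3 A_70_P026066 gave -0.22 (ketamine in normoxia), AQP3 A_70_P026067 gave -0.035 (ketamine in normoxia), AQP4 A_70_P030236 gave 0.36 (hypoxia with vehicle), -0.029 (hypoxia with ketamine), -0.87 (ketamine in hypoxia), -0.39 (the interaction) and 0.17 (the average), AQP5 A_70_P030151 gave -0.00089 (ketamine in hypoxia), -0.22 (ketamine in normoxia) and 0.22 (the interaction), AQP8 A_70_P026741 gave -0.35 (hypoxia with vehicle), 0.012 (hypoxia with ketamine), 0.044 (ketamine in hypoxia), -0.32 (ketamine in normoxia), 0.36 (the interaction) and -0.17 (the average), AQP8 A_70_P026742 gave -0.020 (ketamine in hypoxia), -0.043 (ketamine in normoxia) and 0.024 (the interaction). Without the 2 arrays that stood apart, AQP2 A_70_P026246 gave 0.12 (hypoxia with vehicle) and 0.026 (the average), AQP2 A_70_P026247 gave 0.096 (hypoxia with vehicle), -0.13 (ketamine in hypoxia), -0.16 (the interaction) and 0.017 (the average), AQP4 A_70_P030236 gave 0.022 (hypoxia with vehicle), -0.22 (ketamine in hypoxia) and 0.085 (the average), AQP8 A_70_P026742 gave 0.036 (hypoxia with vehicle) and -0.049 (ketamine in hypoxia). Without the arrays with placental lactogen, AQP2 A_70_P026246 gave 0.041 (ketamine in hypoxia), AQP4 A_70_P030236 gave 0.070 (the average), AQP5 A_70_P030151 gave -0.0052 (ketamine in hypoxia), -0.25 (ketamine in normoxia) and 0.24 (the interaction), AQP8 A_70_P026741 gave 0.17 (hypoxia with ketamine), -0.13 (ketamine in normoxia) and 0.11 (the interaction). With the mean of the 2 overlapping probes, AQP2 A_70_P026246 gave 0.013 (ketamine in hypoxia), AQP2 A_70_P026247 gave -0.039 (the interaction), AQP5 A_70_P030151 gave -0.20 (ketamine in normoxia) and 0.44 (the interaction), AQP5 A_70_P030152 gave 0.071 (hypoxia with vehicle). In the deposited values, AQP2 A_70_P026247 gave -0.0012 (the interaction), AQP5 A_70_P030151 gave 0.0048 (the interaction), AQP8 A_70_P026742 gave 0.041 (hypoxia with vehicle). With the replicate block, AQP2 A_70_P026247 gave -0.028 (the interaction), AQP3 A_70_P026066 gave -0.0078 (ketamine in normoxia). With quantile scaling, AQP2 A_70_P026247 gave -0.034 (the interaction).

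Leaving out each array in turn gave ranges across 0. For AQP2 A_70_P026246 these were -0.16 to 0.12 (hypoxia with vehicle), -0.16 to 0.13 (ketamine in hypoxia), -0.017 to 0.15 (ketamine in normoxia), -0.24 to 0.048 (the interaction) and -0.14 to 0.0052 (the average). For AQP2 A_70_P026247 these were -0.23 to 0.096 (hypoxia with vehicle), -0.15 to 0.17 (ketamine in hypoxia), -0.050 to 0.13 (ketamine in normoxia), -0.18 to 0.15 (the interaction) and -0.15 to 0.0084 (the average). For AQP3 A_70_P026066 these were -0.12 to 0.20 (ketamine in normoxia). For AQP3 A_70_P026067 these were -0.0083 to 0.21 (ketamine in normoxia). For AQP4 A_70_P030236 these were -0.55 to 0.081 (hypoxia with vehicle), -0.085 to 0.50 (hypoxia with ketamine), -0.22 to 0.37 (ketamine in hypoxia) and -0.20 to 0.14 (the average). For AQP5 A_70_P030151 these were -0.12 to 0.32 (ketamine in hypoxia) and -0.44 to 0.072 (the interaction). For AQP8 A_70_P026741 these were -0.10 to 0.15 (hypoxia with vehicle), -0.13 to 0.11 (hypoxia with ketamine), -0.13 to 0.14 (ketamine in hypoxia), -0.081 to 0.16 (ketamine in normoxia), -0.19 to 0.079 (the interaction) and -0.064 to 0.086 (the average). For AQP8 A_70_P026742 these were -0.11 to 0.036 (hypoxia with vehicle) and -0.055 to 0.081 (ketamine in hypoxia).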
